A study of Homo sapiens with 4 samples.

Results

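The comparison described here is of cell identity: Huh-7 against PLC/PRF/5, 2 human hepatoma lines that each carry the imprint of the tumour they were grown from. The series holds 4 polyadenylated RNA libraries, 1 per group. The Huh-7 pair are cells with an empty vector and cells that overexpress CCDC137, both stable lines made by lentivirus and puromycin selection. The PLC/PRF/5 pair are a control and a CCDC137 knockdown, made as stable puromycin-selected cells with the CRISPR interference repressor dCas9-KRAB and a guide RNA, and the labels describe the control only as a control. The study compared treated with control cells within each line, so that a contrast of the lines was not its design. Each line is therefore represented by libraries that differ in CCDC137 and are not replicates of each other, the labels do not say whether they came from separate cultures, and no test was possible.

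The genes were chosen as follows. The tables of the lines were joined by gene identifier, which gave 60612 genes, and the 13857 genes with at least 1 FPKM (fragments scaled by transcript length and library total) in any library were kept. The difference between the lines was read first from the control libraries, as log2 of (FPKM + 1) in Huh-7 with empty vector over that in the PLC/PRF/5 control, so that positive values mean higher in Huh-7. A gene was then called higher in a line where this difference was at least 1 in size, a 2-fold difference on that scale, and both libraries of that line lay above both of the other. Adding 1 FPKM understates the differences of low genes, and the number of fragments per library is unknown. The sums of FPKM per library lay between 276444 and 289684, between 11727 and 11903 genes per library reached 1 FPKM, and the 10 highest genes held 25% to 25.8% of each sum. The lines were not grown alike: Huh-7 was kept in DMEM and PLC/PRF/5 in MEM with added non-essential amino acids and L-glutamine, and medium, vector system and line cannot be told apart in any value below.

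Hepatoma lines keep parts of the hepatocyte programme to differing degrees. The hepatocyte secretes most plasma proteins, from albumin and the apolipoproteins to the clotting and complement factors, under a network of transcription factors that includes the HNF4, FOXA and CEBP families. The fetal liver makes alpha-fetoprotein and insulin-like growth factor II. Alpha-fetoprotein falls silent after birth and often returns in liver cancer. Cancer/testis genes, most of them in families on the X chromosome, are expressed in germ cells, are silenced by promoter DNA methylation in most somatic cells, and are switched on in many tumours.

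The start-site regions of 4 genes show these contrasting kinds of promoter. ALB (albumin) and AFP (alpha-fetoprotein) are neighbours in the albumin gene family, and MAGEA3 and PAGE2 are cancer/testis genes of the X chromosome. Each line is the 250 bases before the start in the RefSeq annotation of GRCh38.p14, 5′ to 3′ on the strand of the gene, here the plus strand for all 4. The windows are chr4:73404037-73404286 for ALB, chr4:73435971-73436220 for AFP, chrX:55088768-55089017 for PAGE2 and chrX:152698544-152698793 for MAGEA3. Capitals mark GTTAAT, a short element found in many promoters of liver genes, in ALB and AFP, and each CG dinucleotide in PAGE2 and MAGEA3.
ALB: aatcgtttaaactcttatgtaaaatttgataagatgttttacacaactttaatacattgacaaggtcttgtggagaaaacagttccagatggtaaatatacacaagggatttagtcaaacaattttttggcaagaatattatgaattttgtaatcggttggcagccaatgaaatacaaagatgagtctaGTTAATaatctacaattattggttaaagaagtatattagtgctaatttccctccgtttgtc
AFP: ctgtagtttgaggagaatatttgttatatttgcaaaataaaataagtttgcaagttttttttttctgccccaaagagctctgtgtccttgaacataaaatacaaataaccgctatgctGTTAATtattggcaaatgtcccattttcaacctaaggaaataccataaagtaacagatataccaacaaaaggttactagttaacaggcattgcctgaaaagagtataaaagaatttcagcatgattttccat
PAGE2: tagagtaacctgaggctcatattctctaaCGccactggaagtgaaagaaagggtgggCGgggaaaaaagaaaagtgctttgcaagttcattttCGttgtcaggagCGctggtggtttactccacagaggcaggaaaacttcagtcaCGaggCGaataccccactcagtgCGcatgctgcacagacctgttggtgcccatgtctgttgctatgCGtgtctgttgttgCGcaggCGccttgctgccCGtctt
MAGEA3: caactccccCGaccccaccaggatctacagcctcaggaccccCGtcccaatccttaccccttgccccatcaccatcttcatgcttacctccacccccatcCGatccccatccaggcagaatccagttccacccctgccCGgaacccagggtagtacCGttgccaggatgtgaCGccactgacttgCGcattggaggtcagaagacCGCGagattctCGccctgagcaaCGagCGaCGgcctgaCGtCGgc

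GTTAAT began 61 bases before the ALB start and 132 bases before the AFP start, once in each window. The ALB window held 3 CG dinucleotides and the AFP window 1, against 11 in PAGE2 and 15 in MAGEA3. GTTAAT was searched on both strands, that is as GTTAAT or ATTAAC, and no other motif was searched that could overlap it. It stood in a window of 7.5% of the 27305 genes that had one, in 11 of the 31 coagulation and complement genes (35.5%), in 6 of the 24 secreted carriers (25%), in 3 of the 15 apolipoprotein genes (20%) and in 3 of the 40 cancer/testis genes (7.5%). Among the genes called in the comparison of the lines it stood in 72 of 1189 higher in Huh-7 (6.06%) and in 79 of 1320 higher in PLC/PRF/5 (5.98%), beside 351 of 7075 genes not called (4.96%). The median number of CG dinucleotides per window was 2 in coagulation and complement genes, 5 in secreted carriers, 9 in cancer/testis genes and 11 over all genes, beside 18 in genes called higher in Huh-7, 19 in genes called higher in PLC/PRF/5 and 21 in kept genes not called. A match of these letters is a description of the sequence and not a measured binding site.

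The lines stood apart in about 1 gene of 4 by the call rule. Of the 13857 genes, 1744 (12.6%) were called higher in Huh-7 and 1872 (13.5%) higher in PLC/PRF/5, together 3616 (26.1%). The libraries of the lines did not overlap in 11432 genes (82.5%), of which 5606 were higher in Huh-7 and 5826 in PLC/PRF/5, so that a lack of overlap alone says little about a gene. The median size of the difference was 0.58 between the control libraries of the lines and 0.58 between the perturbed libraries, against 0.12 between the Huh-7 libraries and 0.10 between the PLC/PRF/5 libraries. The median signed difference was -0.03 between the control libraries and 0.00 between the perturbed libraries.

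Within a line, the same threshold of 1 was passed by 264 genes between the Huh-7 libraries (1.91%) and by 283 genes between the PLC/PRF/5 libraries (2.04%). A stricter measure, the line gap, sets the lowest library of the higher line against the highest library of the lower line. It was at least 1 on the log2 scale for 1321 genes higher in Huh-7 (9.53%) and for 1451 higher in PLC/PRF/5 (10.5%). Across genes, the differences of the control libraries and those of the perturbed libraries had a Pearson correlation of 0.909, given as a description since genes are not independent.

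**Figure D1:**
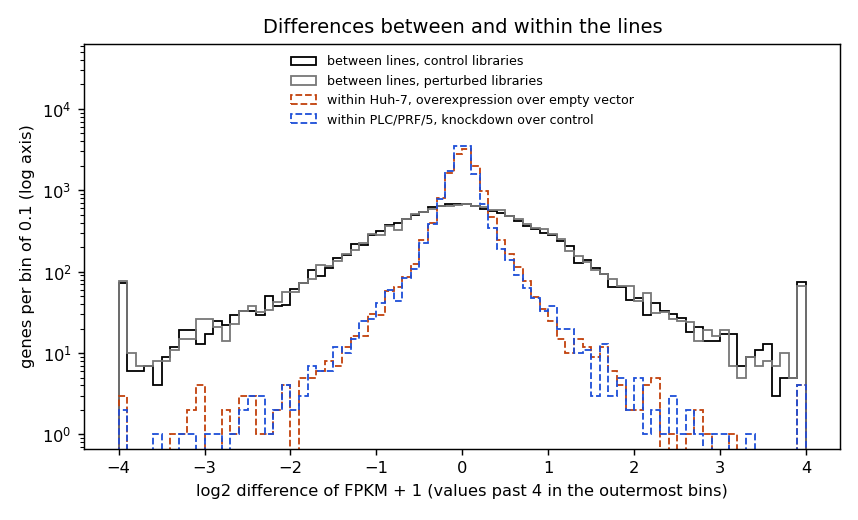
Distribution over the 13857 kept genes of the log2 difference of FPKM + 1 between the lines, from the control and from the perturbed libraries, beside the differences within each line, in bins of 0.1 with larger values in the outermost bins and a log axis of genes per bin. The differences between lines spread widely, with a median size of 0.58 in both pairs, and those within lines lie close to 0, with a median size of 0.12 in Huh-7 and 0.10 in PLC/PRF/5.

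Most called genes differed moderately and a small number differed by orders of magnitude. A difference of at least 2 in size was reached by 426 of the genes called higher in Huh-7 and by 470 of those higher in PLC/PRF/5, one of at least 4 by 65 and 65, and one of at least 6 by 9 and 11. The called genes included 115 that reached 100 FPKM in both libraries of the higher line, 51 in Huh-7 and 64 in PLC/PRF/5. Genes called higher in Huh-7 held 12.9% of the FPKM in both Huh-7 libraries and 3.29% and 3.32% of that in the PLC/PRF/5 libraries. Genes called higher in PLC/PRF/5 held 18.0% and 17.7% of the FPKM there, and 5.28% and 5.46% in Huh-7. By kind of gene, 26.3% of the 11479 protein-coding genes and 30.0% of the 927 long noncoding RNA genes were called.

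CCDC137 followed the labels of the libraries. It was measured at 11.9 FPKM in Huh-7 with empty vector, 229 in the overexpressing cells, 20.5 in the PLC/PRF/5 control and 0.771 in the knockdown. Its perturbation runs in opposite directions in the lines, so that the gene itself overlaps between them. The difference between the controls, -0.73, was also under the threshold, and CCDC137 has no line call.

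The line markers separated Huh-7 from PLC/PRF/5 to unequal degrees, and 1 of them barely held. AFP, the fetal albumin relative used as a serum marker of liver cancer, was at 419 and 530.2 FPKM in Huh-7 (empty vector, then overexpression, the order used throughout) and at 90.8 and 139 in PLC/PRF/5 (control, then knockdown). Both Huh-7 libraries lay above both PLC/PRF/5 libraries, with a difference of 2.19 between the controls and 1.92 between the perturbed libraries. GPC3, a membrane-anchored heparan sulfate proteoglycan of fetal liver and liver cancer, was at 81.2 and 120 FPKM in Huh-7 and at 28.1 and 18.4 in PLC/PRF/5. Its difference was 1.5 between the controls and 2.64 between the perturbed libraries. AADAC, an esterase of the hepatocyte endoplasmic reticulum, was at 14.3 and 10.5 FPKM in Huh-7 and at 0.0434 and 0 in PLC/PRF/5, the cleanest separation of the 4 markers.

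LIN28B, an RNA-binding protein that blocks maturation of let-7 microRNAs, went the other way and depended on the libraries compared. It was at 3.92 and 9.27 FPKM in Huh-7 and at 22.7 and 11.1 in PLC/PRF/5. The difference was -2.27 between the controls and only -0.23 between the perturbed libraries, since the level was higher in the overexpressing than in the empty-vector Huh-7 cells and lower in the knockdown than in the control PLC/PRF/5 cells. The overexpressing Huh-7 cells came within 0.23 of the knockdown cells on the log2 scale, so that this line call rests on the control libraries.

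**Figure D2:**
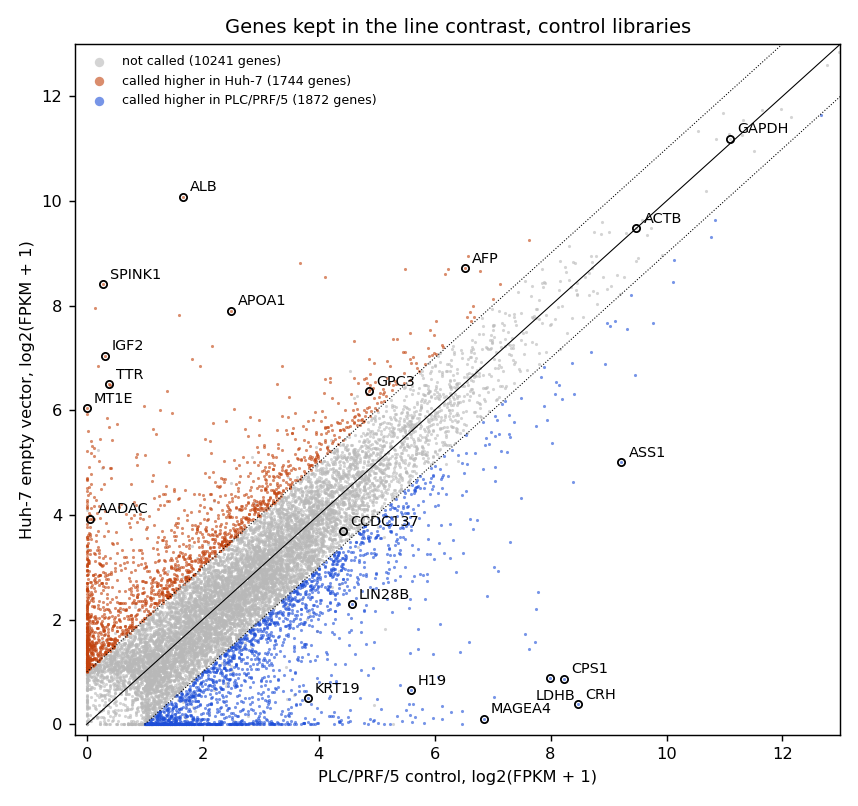
Level of each kept gene as log2 of FPKM + 1 in the Huh-7 empty-vector library (vertical) against the PLC/PRF/5 control library (horizontal), with a solid line at equal levels, dotted lines at a difference of 1, and the called genes coloured by line and the line markers and leading genes named. The 1744 genes called higher in Huh-7 and the 1872 called higher in PLC/PRF/5 lie above and below the solid line, with ALB, CRH, CPS1 and LDHB among the farthest from it.

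Both libraries of each line carried hepatocyte markers, although not the same ones. ALB was at 1084 and 1142 FPKM in Huh-7 and at 2.15 and 1.94 in PLC/PRF/5, the widest line gap in that direction, with a difference of 8.43 between the controls. HNF4A, the nuclear receptor that anchors the hepatocyte network, was present in both lines without a call, at 12.1 and 17.3 FPKM in Huh-7 and at 9.05 and 11.6 in PLC/PRF/5. The markers of other cell types were mostly absent. Of 12 fibroblast and stellate cell markers only LUM (lumican, a matrix proteoglycan) was kept, at 28.7 and 22.8 FPKM in Huh-7 and at 0.328 and 0.285 in PLC/PRF/5, and COL1A1 stayed under 1 FPKM in every library while POSTN was listed at 0 in all 4. The summed level of those 12 markers was 26.2 to 31.7 FPKM in Huh-7 and 1.53 to 1.81 in PLC/PRF/5. Of 18 blood and endothelial markers 5 were kept, PTPRC and HBB were listed at 0 in all 4 libraries, and the sum, most of it the lysozyme gene LYZ, was 173 to 212 FPKM in Huh-7 and 170 to 254 in PLC/PRF/5. The libraries come from cultured hepatoma lines and not from tissue, and the levels of these markers are not a measure of other cell types.

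The widest line gaps in favour of Huh-7 belonged mainly to secreted proteins. SPINK1, a secreted trypsin inhibitor often raised in liver tumours, was at 339 and 339 FPKM in Huh-7 and at 0.219 and 0.286 in PLC/PRF/5, a difference of 8.12. IGF2, which encodes insulin-like growth factor II, was at 131 and 178 FPKM against 0.242 and 0.210. The IGF2 exons overlap those of another gene on the same strand, so part of its value could belong there. DKK1, a secreted antagonist of Wnt signalling, was at 114 and 84.8 FPKM against 0.142 and 0.202, a difference of 6.65.

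Plasma carriers were among the next genes. TTR, the carrier of thyroxine and of retinol-binding protein, was at 89.3 and 93.0 FPKM in Huh-7 and at 0.298 and 0.260 in PLC/PRF/5. GC, the vitamin D-binding protein, was at 88.5 and 86.4 against 0.319 and 0.200. APOA1, the main protein of high-density lipoprotein, was at 238 and 245 against 4.60 and 4.01. Genes of widest line gap were picked among those that do not overlap between the lines, so that this separation holds by choice. Within each line the libraries of TTR, GC and APOA1 lay close together, which the choice also favours. The others among the 15 widest gaps in this direction were ORM2 and AHSG (acute-phase and fetal plasma glycoproteins), MT1E (a metallothionein), TMEM176B (a membrane protein), the readthrough transcript APOC4-APOC2, DPP4 (a cell-surface peptidase), SERPIND1 (a thrombin inhibitor) and TNFRSF11B (osteoprotegerin). TNFRSF11B, at 36.2 and 37.2 FPKM in Huh-7, was listed at 0 in both PLC/PRF/5 libraries, as was MT1E, at 65.0 and 54.8 in Huh-7.

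In the other direction the leading genes were of mixed function. CRH, the corticotropin-releasing hormone of the hypothalamus, was at 0.310 and 0.249 FPKM in Huh-7 and at 356 and 375 in PLC/PRF/5, a difference of -8.09. CPS1, which makes carbamoyl phosphate at the entry of the urea cycle, was at 0.831 and 0.899 against 301 and 309, a difference of -7.36. LDHB, the heart-type subunit of lactate dehydrogenase, was at 0.850 and 0.757 against 254 and 239, a difference of -7.11. The exons of LDHB overlap those of another gene on the same strand, so part of its value could belong there. The partner subunit LDHA was at 136 and 152 FPKM in Huh-7 and at 87.7 and 74.5 in PLC/PRF/5, so that the lines differed far more in the heart-type than in the muscle-type subunit.

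BST2, the interferon-inducible membrane protein tetherin, was at 0.428 and 0.274 FPKM in Huh-7 and at 129 and 154 in PLC/PRF/5. IGFBP1, a liver-secreted binding protein of insulin-like growth factors, was at 1.97 and 1.84 against 212 and 161. CYP24A1, the mitochondrial enzyme that inactivates vitamin D, was at 0.0893 and 0.0711 against 62.1 and 73.0. In each of these the Huh-7 libraries lay under 2 FPKM, and the wide gap to PLC/PRF/5 is the rule by which they were chosen. The rest of the 15 widest gaps in favour of PLC/PRF/5 were the cancer/testis genes MAGEA4 and PAGE2, PLP2 (a membrane proteolipid), CNTN1 (a neuronal adhesion protein), SLC2A3 (a glucose transporter), EREG (a ligand of the epidermal growth factor receptor), C1QL1 (a secreted C1q-like protein), TCF21 (a mesodermal transcription factor) and TM4SF4 (a tetraspan membrane protein).

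**Figure D3:**
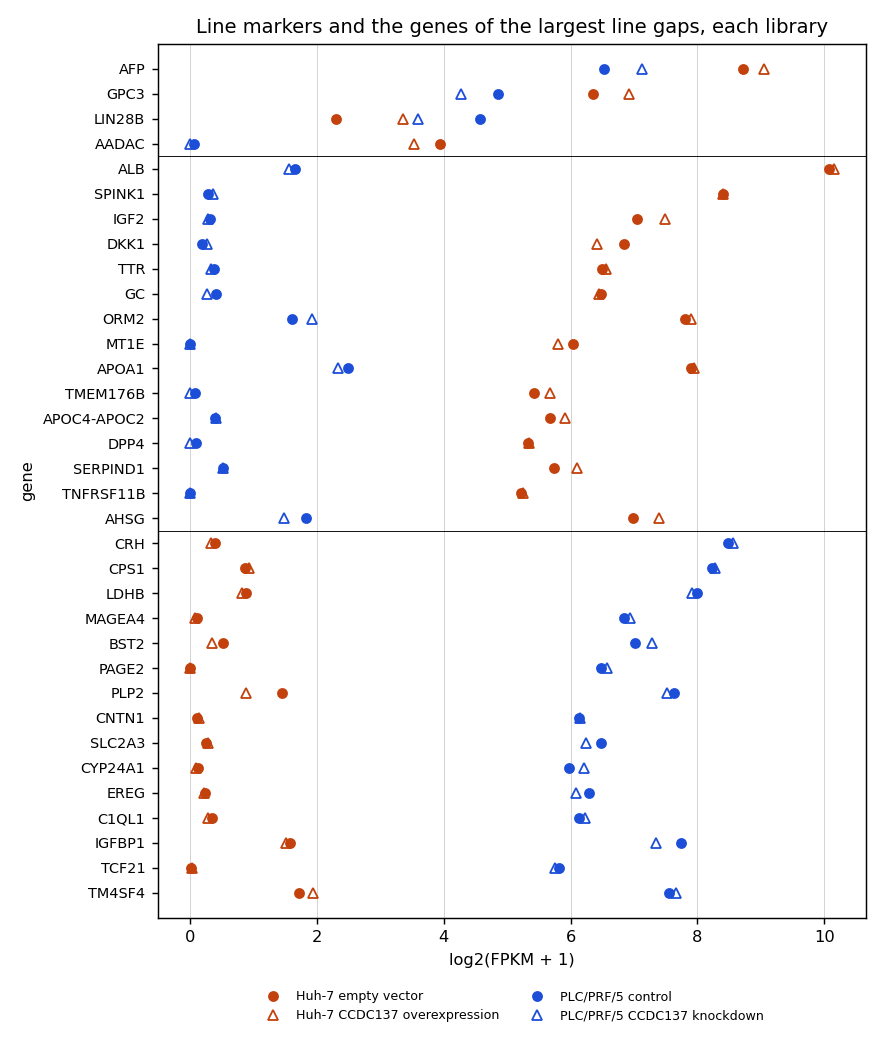
Level of the 4 line markers and of the 15 genes of widest line gap in each direction as log2 of FPKM + 1, 1 point per library, filled for controls and open for perturbed libraries. In LIN28B the overexpressing Huh-7 cells (9.27 FPKM) come near the knockdown cells (11.1 FPKM). AFP and GPC3 vary within the lines and have line gaps of 1.58 and 1.5. In AADAC and the genes of widest line gap, the libraries of a line sit together and far from those of the other. For the genes of widest line gap this follows from how they were chosen.

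Gene lists of known function were read against the shares of all genes called, 12.6% and 13.5%. Of 31 lists, 4 had a median difference of 1 or more between the control libraries, 1 of them with a single kept member, and 2 had a median of -1 or less. The sign of the median was the same between the perturbed libraries in 27 of the 31.

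Among the proteins a hepatocyte secretes, more were higher in Huh-7. Of 26 kept secreted carriers, 14 were called higher in Huh-7 and 5 higher in PLC/PRF/5, with a median difference of 1.60 over the kept members. That median depends on the filter and the scale: without the floor, over all members above 0 in any library, it was 0.13, and with 5 FPKM added in place of 1 it was 0.52. Haptoglobin, HP, which binds free haemoglobin, was at 33.8 and 32.9 FPKM in Huh-7 and at 0.0938 and 0.0260 in PLC/PRF/5. ORM1, an acute-phase glycoprotein, was at 452 and 480 against 11.9 and 14.0, and reads of ORM1 and its near-identical neighbour ORM2 may have been divided between them. RBP4, the retinol carrier, was at 416 and 329.7 against 44 and 63.1.

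The secreted carriers higher in PLC/PRF/5 were fewer but not minor. AGT, the precursor of angiotensin, was at 349 and 358 FPKM in Huh-7 and at 1102 and 1168 in PLC/PRF/5. CP, the copper-carrying ferroxidase ceruloplasmin, was at 1.70 and 1.61 against 51.3 and 55.8. SERPINA6, the cortisol carrier of plasma, was at 6.22 and 5.56 against 54.7 and 62.4. SERPINA1, the antitrypsin gene, was at 296 and 281 against 589 and 484 and was not called. Summed over the list, the levels were 4069 and 4124 FPKM in Huh-7 and 2900.4 and 2945 in PLC/PRF/5, a smaller contrast than the count of genes.

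Clotting and complement genes leaned the same way. Of 30 kept members, 16 were called higher in Huh-7 and 3 in PLC/PRF/5, with a median difference of 1.12, and 0.88 without the floor. CFI, a protease that inactivates complement fragments, was at 48.8 and 52.3 FPKM in Huh-7 and at 1.21 and 1.75 in PLC/PRF/5. Clotting factor V, F5, was at 16.8 and 19.1 against 0.475 and 0.362. The exceptions were FGA, the fibrinogen alpha chain, at 295 and 252 against 666 and 699, C8G, a small subunit of the complement membrane attack complex, at 0.384 and 0.578 against 12.1 and 13.4, and F12, the contact-phase clotting factor.

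Apolipoproteins were divided more evenly. Of 20 kept genes of lipoprotein assembly, 8 were higher in Huh-7 and 4 in PLC/PRF/5, with a median difference of 0.38. APOC3, an inhibitor of lipoprotein lipase, was at 63.1 and 62.6 FPKM in Huh-7 and at 1.40 and 1.82 in PLC/PRF/5. APOA2, another protein of high-density lipoprotein, was at 390.1 and 368 against 71.7 and 25.4. APOM, which carries sphingosine phosphate, was at 4.29 and 4.43 against 46.7 and 43.6. MTTP, which loads lipid onto apolipoprotein B, was at 1.15 and 1.3 against 4.83 and 3.65.

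The transcription factors of the hepatocyte network were also divided between the lines. Of 27 kept, 10 were called higher in Huh-7 and 6 higher in PLC/PRF/5. NR1H4, the bile acid receptor, was at 11.7 and 12 FPKM in Huh-7 and at 0.0310 and 0.0766 in PLC/PRF/5. CEBPA, which drives metabolic hepatocyte genes, was at 55.1 and 61.7 against 6.85 and 6.40. GATA6, a factor of endoderm formation, was at 6.34 and 6.12 against 0.0145 and 0.0253. Higher in PLC/PRF/5 was ONECUT1, a factor of liver and bile duct development, at 3.07 and 3.41 against 11.2 and 12.4. FOXA3, a forkhead factor of the hepatocyte, was at 4.27 and 13.3 FPKM in Huh-7 and at 18.4 and 16.3 in PLC/PRF/5, so that its call rests largely on the empty-vector library.

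**Figure D4:**
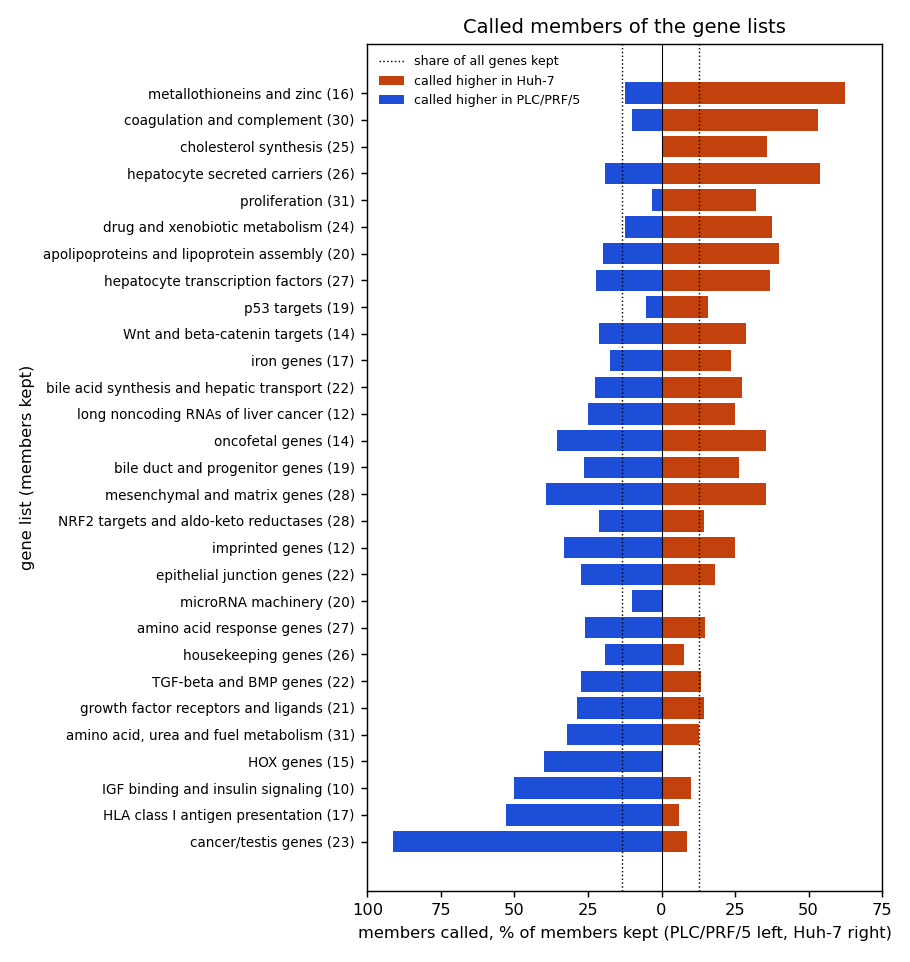
Share of the kept members of each gene list that was called higher in Huh-7 (right) or in PLC/PRF/5 (left). Lists are ordered by the share for Huh-7 minus that for PLC/PRF/5, with the number of kept members in parentheses. Dotted lines mark the shares of all genes, 12.6% and 13.5%. Metallothionein, carrier and clotting lists reach farthest to the right and the cancer/testis list farthest to the left. The lists of fibroblast and of blood and endothelial markers are left out.

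Metabolic genes of the liver did not follow the carriers. Of 31 kept genes of amino acid, urea and fuel metabolism, 4 were called higher in Huh-7 and 10 higher in PLC/PRF/5. ASS1, which joins citrulline and aspartate in the urea cycle, was at 31.3 and 30.5 FPKM in Huh-7 and at 596 and 576 in PLC/PRF/5, in the same direction as CPS1. PDK4, which restrains pyruvate entry into the citric acid cycle, was at 0.409 and 0.276 against 25.2 and 24.9. Higher in Huh-7 were HK2, the hexokinase of growing and tumour cells, at 30.04 and 29.1 against 5.21 and 4.78, and PHGDH, the first enzyme of serine synthesis, at 39.9 and 46.5 against 8.86 and 9.09, together with PC (pyruvate carboxylase) and GLUL (glutamine synthetase).

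Of 24 kept drug-metabolising genes, 9 were called higher in Huh-7 and 3 higher in PLC/PRF/5. The median difference was 0.35 between the controls and -0.02 between the perturbed libraries, and the summed level was lower in Huh-7, at 545 and 528 FPKM against 635 and 666. SULT2A1, the steroid sulfotransferase, was at 16.5 and 12.7 FPKM in Huh-7 and was listed at 0 in both PLC/PRF/5 libraries. UGT2B4, a glucuronosyltransferase that conjugates bile acids, was at 16.3 and 16.1 against 1.35 and 1.58. Bile acid and transporter genes were divided, 6 against 5 of 22. ABCC2, the canalicular export pump for conjugates, was higher in PLC/PRF/5 at 15.6 and 15.6 against 55.4 and 49.9. SLC22A9, an organic anion transporter, was higher in Huh-7 at 21.5 and 26.7 against 0.192 and 0.236.

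Metallothioneins, small cysteine-rich proteins that bind zinc and copper, formed the list with the highest median in favour of Huh-7 among lists with more than 1 kept member. Of 16 kept members of the metallothionein and zinc list, 10 were called higher in Huh-7 and 2 in PLC/PRF/5, with a median difference of 2.72 between the controls and 2.49 between the perturbed libraries. MT2A was at 46.0 and 32.1 FPKM in Huh-7 and at 1.29 and 0.882 in PLC/PRF/5. MT1G was at 24.4 and 21.4 in Huh-7 and, like MT1A, MT1E, MT1H and MT1M, was listed at 0 in both PLC/PRF/5 libraries. The members are near-identical copies, so reads may have been divided among them. The 2 genes in the other direction were zinc transporters, SLC39A10 at 1.27 and 1.77 against 6.82 and 8.46, and SLC39A4 at 0.0279 and 0 against 2.52 and 2.34.

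Calls among cholesterol synthesis and proliferation genes were mainly in favour of Huh-7. Of 25 cholesterol synthesis genes, 9 were higher in Huh-7 and 0 in PLC/PRF/5, with a median difference of 0.34 between the controls and 0.73 between the perturbed libraries. EBP, a sterol isomerase, was at 95.6 and 98.1 FPKM in Huh-7 and at 16.3 and 13.6 in PLC/PRF/5. MSMO1, a sterol demethylating oxidase, was at 103 and 129.6 against 28.6 and 27.9. HMGCS1, which makes the substrate of the rate-limiting step, was at 71.5 and 122 against 33.9 and 31.3, and so varied within Huh-7 too. Of 31 proliferation genes, 10 were higher in Huh-7 and 1 in PLC/PRF/5. PCNA, the sliding clamp of replication, was at 137 and 137 against 42.6 and 44.6, and MCM2, a subunit of the replicative helicase, at 49.1 and 40.8 against 12.8 and 13.9. Also among the 10 were CDKN1A and CDKN2B, which restrain the cell cycle, CDKN1A at 19.5 and 15 against 1.36 and 1.21. The exception was the mitotic kinase AURKA, at 20.4 and 38.3 against 65.8 and 68.8.

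Cancer/testis genes were the list with the largest median in favour of PLC/PRF/5. Of 46 members present, 23 were kept, and 21 of these were called higher in PLC/PRF/5 and 2 higher in Huh-7, with a median difference of -3.51 between the controls and -3.99 between the perturbed libraries. Without the floor, over all members above 0 in any library, the median between the controls was -1.50. The 23 that were not kept stayed under 1 FPKM in all libraries, and a low gene was kept only through the line in which it is high. MAGEA4 was at 0.0765 and 0.0546 FPKM in Huh-7 and at 114 and 122 in PLC/PRF/5. PAGE2, whose promoter is printed above, was listed at 0 in both Huh-7 libraries and reached 88.1 and 94.7 in PLC/PRF/5. MAGEA3, with the other printed promoter, was at 0.0794 and 0.0893 against 28.5 and 25.3. MAGEA12, MAGEC2, MAGEA10, PAGE5 and XAGE2 were among those listed at 0 in both Huh-7 libraries.

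The exceptions were MAGEB2, a MAGE gene outside the MAGEA group, and PRAME. MAGEB2 was at 26.0 and 28.5 FPKM in Huh-7 and at 1.20 and 1.31 in PLC/PRF/5. PRAME, a repressor of retinoic acid signalling expressed in many tumours, was at 17.2 and 17.6 against 6.39 and 6.10. Several members exist as near-identical copies (MAGEA3 and MAGEA6, SSX2 and SSX2B, XAGE1A and XAGE1B), so the level of a single copy is uncertain.

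Genes of the X chromosome outside the cancer/testis list were also more often higher in PLC/PRF/5. All 505 kept genes of X gave 36 calls for Huh-7 and 174 for PLC/PRF/5 (34.5%), with a median difference of -0.56. Over the kept genes of all chromosomes, 12.6% were called for Huh-7 and 13.5% for PLC/PRF/5. Without the 19 list members on X, the other 486 gave 35 and 156 (32.1%) with a median of -0.52, and -0.48 between the perturbed libraries. HPRT1, the purine salvage enzyme, was at 5.48 and 8.11 FPKM in Huh-7 and at 33.3 and 35.7 in PLC/PRF/5, and PGK1, a glycolytic kinase, at 71.4 and 71.8 against 148 and 147. Both are common reference genes, and both lie on X. MAGED1, a more widely expressed MAGE relative, was at 0.0213 and 0.0181 against 26.6 and 28.3.

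Antigen presentation genes were called mainly in favour of PLC/PRF/5. Of 17 kept members, 9 were called higher there, 1 was called higher in Huh-7 and 7 were not called. The median difference was -1.20, and -0.96 without the floor. HLA-C, a class I heavy chain, was at 0.235 and 0.143 FPKM in Huh-7 and at 14.6 and 29.9 in PLC/PRF/5, and HLA-B at 0.0316 and 0.0774 against 5.15 and 5.09. B2M, the light chain shared by all class I molecules, was not called. TAP1, the peptide transporter, was at 1.89 and 1.46 against 8.63 and 8.92, and TAPBPL, a peptide-editing chaperone, was the gene in the other direction at 3.46 and 2.95 against 0.992 and 1.11.

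Genes of insulin-like growth factor signalling were called in both directions. IGF2, the ligand, was higher in Huh-7, while 3 binding proteins were higher in PLC/PRF/5, with IGFBP3 at 5.77 and 4.13 FPKM in Huh-7 against 38.8 and 48.1, and IGFBP4 at 1.62 and 1.58 against 85.8 and 99.6, beside IGFBP1 above. Of the adaptor proteins below the insulin receptor, IRS1 was higher in Huh-7 at 14.8 and 13.7 against 6.71 and 7.29, and IRS2 higher in PLC/PRF/5 at 1.23 and 1.15 against 6.70 and 7.52. The list of insulin-like growth factor binding and insulin signalling genes does not hold IGF2. Of its 10 kept members, 1 was called for Huh-7 and 5 for PLC/PRF/5.

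IGF2 and its imprinted neighbour H19, a long noncoding RNA, went opposite ways. H19 was at 0.575 and 0.502 FPKM in Huh-7 and at 47.1 and 52.0 in PLC/PRF/5, and IGF2 at 131 and 178 against 0.242 and 0.210. In both lines 1 of the pair was abundant and the other lay under 1 FPKM. SNRPN, an imprinted splicing factor gene of the Prader-Willi region, was at 0.0277 and 0.0705 against 47.9 and 45.3. PEG10, an imprinted gene derived from a retrotransposon, was at 89.7 and 85.9 against 39.1 and 44. Of 12 kept imprinted genes, 3 were called for Huh-7 and 4 for PLC/PRF/5.

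EREG and AREG, ligands of the epidermal growth factor receptor, and the receptor relative ERBB2 were higher in PLC/PRF/5. EREG was at 0.181 and 0.164 FPKM in Huh-7 and at 77.0 and 66.9 in PLC/PRF/5, and AREG at 45.5 and 37.8 against 138 and 113. ERBB2 was at 2.59 and 3.01 against 10.8 and 10.03. AXL, a receptor kinase linked to invasion, was at 0.173 and 0.0882 against 18.1 and 14.2. FGF19, the endocrine regulator of bile acid synthesis, was in the other direction at 2.51 and 3.06 against 0 and 0.0779. Over the 21 kept receptors and ligands, 3 were called for Huh-7 and 6 for PLC/PRF/5.

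Mesenchymal and epithelial genes were called in both directions. Of 28 kept mesenchymal and matrix genes, 10 were higher in Huh-7 and 11 in PLC/PRF/5. VIM, the intermediate filament vimentin, was at 125 and 129 FPKM in Huh-7 and at 28.1 and 27.3 in PLC/PRF/5, and FN1, fibronectin, at 339 and 337 against 138 and 129. MYL9, a myosin light chain of contractile cells, was at 7.03 and 4.56 against 129 and 140.1, and LGALS1, a secreted galectin, at 4.23 and 2.22 against 55.9 and 50.6. CDH1, the epithelial cadherin, was at 15.9 and 17.7 against 16.8 and 15.2 with no call. Of 22 junction genes, 4 were called for Huh-7 and 6 for PLC/PRF/5, with SPINT2, a protease inhibitor of epithelia, at 0.0602 and 0.110 against 30.2 and 25.9.

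Bile duct and progenitor genes were likewise divided, 5 and 5 of 19. KRT19, a keratin of bile duct cells, was at 0.409 and 0.157 FPKM in Huh-7 and at 13 and 14.4 in PLC/PRF/5. EPCAM, an adhesion protein of progenitor cells, was at 11 and 9.01 against 0 and 0.175. S100A6, a calcium-binding protein, was at 57.0 and 30.8 against 0.282 and 0.146, and CD44, the hyaluronan receptor, at 10.7 and 4.58 against 0.0482 and 0.105. Markers commonly read together thus stood on opposite sides.

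The remaining lists had medians of less than 1 in size between the controls. HOX genes, the positional factors of the body axis, gave 0 calls for Huh-7 and 6 for PLC/PRF/5 among 15 kept, all at low levels, HOXC8 at 0.830 and 0.895 FPKM against 4.51 and 5.28 for example. GDF15, a stress-induced hormone, was at 23.6 and 22.9 against 332 and 275, while CDKN1A, listed with it as a p53 target, went the other way. Of the 19 kept p53 targets, 3 were called for Huh-7 and 1 for PLC/PRF/5. The noncoding RNA UCA1 was at 0.225 and 0.131 against 54.4 and 41.4. BMP2, a bone morphogenetic protein, was at 35.5 and 30.2 against 3.42 and 4.17, among 22 TGF-beta and BMP genes with 3 calls for Huh-7 and 6 for PLC/PRF/5.

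Transport and stress genes were divided as well. TFRC, the transferrin receptor, was at 46.0 and 44.2 FPKM in Huh-7 and at 155 and 158 in PLC/PRF/5, and NCOA4, which delivers ferritin to lysosomes, at 97.4 and 98.8 against 23.5 and 25.1, among 17 iron genes with 4 and 3 calls. HMOX1, the haem-degrading enzyme, was at 15.3 and 14.7 against 42.5 and 38.5, and NQO1, a quinone reductase, at 76.3 and 87.0 against 34.8 and 47.9, among 28 NRF2 targets and aldo-keto reductases with 4 and 6 calls. SLC7A5, a transporter of large neutral amino acids, was at 66.5 and 68.7 against 236 and 236, and TRIB3, a pseudokinase, at 66.2 and 74.9 against 28.1 and 24.0, among 27 amino acid response genes with 4 and 7 calls. These are genes that respond to amino acid supply, and the difference in media and the line cannot be told apart. Of 14 Wnt targets 4 and 3 were called, and of 12 noncoding RNAs of liver cancer 3 and 3. Among 20 genes of the microRNA machinery, the calls were LIN28B and DICER1, the pre-miRNA nuclease, at 2.60 and 2.99 against 7.31 and 7.96. Of 14 kept oncofetal genes, 5 and 5 were called, with HMGA1, a chromatin architectural protein, at 113 and 108 against 236 and 235.

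The housekeeping list served as a comparison. Of 26 genes, 2 were called for Huh-7 (7.69%) and 5 for PLC/PRF/5 (19.2%), with a median difference of -0.09. Of all kept genes, 12.6% and 13.5% were called, so that the list was not free of line differences. The genes ACTB and GAPDH were not called. ACTB, beta-actin, was at 713 and 838 FPKM in Huh-7 and at 714 and 709 in PLC/PRF/5, and GAPDH, the glycolytic dehydrogenase, at 2338 and 2189 against 2187 and 2048.

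Genes found in a single line gave the sharpest contrast. With at least 5 FPKM in both libraries of a line and under 0.1 in both of the other, 69 genes marked Huh-7 and 95 marked PLC/PRF/5. Of these 62 and 86 were protein-coding, 24 and 27 were listed at 0 in both libraries of the other line, and 3 and 30 lay on the X chromosome. Of all 13857 kept genes 505 lay on X. The 3 of 69 for Huh-7 stood near that share and the 30 of 95 for PLC/PRF/5 above it. Of the 30 genes on X, 13 were members of the cancer/testis list and 17 were not.

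Outside the lists, the Huh-7 group included CTSE, an endosomal aspartic protease, at 59.8 and 33.9 FPKM against 0 in both PLC/PRF/5 libraries. MEP1A, a brush-border metalloprotease, was at 21.7 and 22.3, also against 0 in both. CXCL10, an interferon-induced chemokine, was at 26.4 and 12.9 against 0.0478 and 0. MYCN, a MYC family factor of embryonic tissue, was at 9.69 and 11.9 against 0 and 0.0332. CD3D, a subunit of the T cell receptor complex, was at 16.7 and 19.7 against 0 in both, while its partner CD3E stayed under 0.1 FPKM in every library.

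The PLC/PRF/5 group included KRT20, a keratin of intestinal epithelium, at 0.0506 and 0 FPKM in Huh-7 against 29.7 and 27.0. RUNX3, a runt-domain transcription factor, was listed at 0 in both Huh-7 libraries and at 6.91 and 7.45 in PLC/PRF/5. CXCL12, a homing chemokine, was likewise at 0 in both against 7.91 and 8.37, and CD40, a receptor of the tumour necrosis factor family, at 0 against 8.23 and 8.54. WNT7B, a secreted Wnt ligand, was at 0.0280 and 0.0276 against 7.35 and 8.47. Some members of these groups cannot be measured apart from a relative: CBSL, at 25.3 and 17.0 in Huh-7 and 0 in PLC/PRF/5, is a near-identical copy of CBS, and HPR resembles HP.

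Line differences also followed position in the genome. Gene positions were taken from GENCODE 44 lifted to GRCh37 by gene identifier, which placed 13704 of the kept genes. The median difference was highest on chromosome 22 at 0.56, where 25.7% of 339 genes were called higher in Huh-7, and next on chromosome 20 at 0.30. It was lowest on chromosome 21 at -0.68, where 26.9% of 156 genes were called higher in PLC/PRF/5, then on X at -0.56, chromosome 6 at -0.43 and chromosome 17 at -0.32. Over all kept genes, the shares called were 12.6% for Huh-7 and 13.5% for PLC/PRF/5. The medians between the libraries within each line stayed near 0 on these chromosomes, and the medians between the perturbed libraries were 0.56 on chromosome 22 and -0.61 on chromosome 21.

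In windows of 20 Mb with at least 20 genes, 13 of 153 had a median of 0.5 or more and 19 a median of -0.5 or less. The sign was the same between the perturbed libraries in 136 of them. The extreme windows were the first 20 Mb of chromosome 3 at 1.00, with 44 of 88 genes called higher in Huh-7 and 2 in PLC/PRF/5, and the first 20 Mb of X at -1.20. The shares over all kept genes were 12.6% for Huh-7 and 13.5% for PLC/PRF/5. Within a line the largest window median in size was 0.151 between the Huh-7 libraries and 0.118 between the PLC/PRF/5 libraries.

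**Figure D5:**
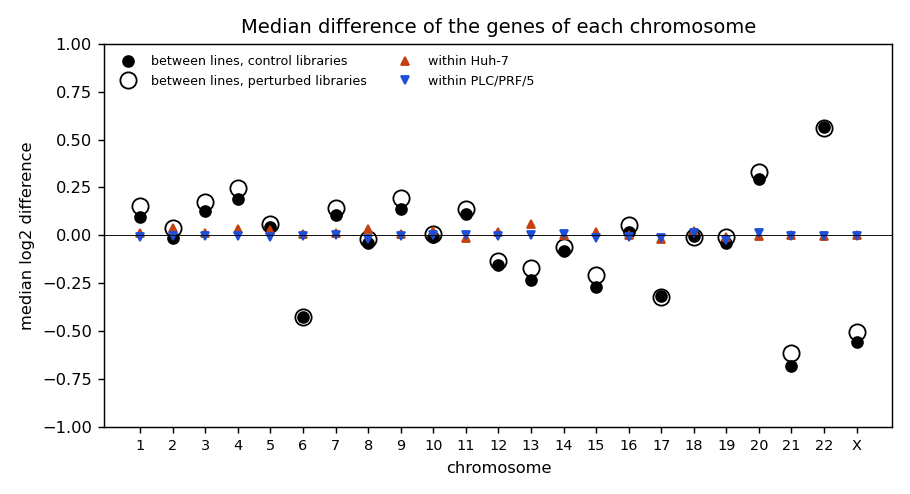
Median log2 difference of FPKM + 1 over the kept genes of each chromosome, from the control and the perturbed libraries, beside the medians of the differences within each line. Chromosome 22 (0.56) stands highest and chromosome 21 (-0.68) and X (-0.56) lowest, while the within-line medians stay near 0.

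At a finer scale, some called genes of the same direction lay side by side. There were 72 runs of at least 4 kept neighbours called in the same direction, 34 for Huh-7 and 38 for PLC/PRF/5. They held 370 of the 13704 placed genes. Of all kept genes, 12.6% were called higher in Huh-7 and 13.5% higher in PLC/PRF/5. The number of runs to be had from these shares alone was not worked out, and genes not kept were skipped. Genes under 1 FPKM in both libraries of a line, such as the MAGEA genes below in Huh-7, were kept only through the other line. The shared direction of such neighbours comes partly from the floor. The longest of the 72 runs, 14 genes from CCS to ANKRD13D at chr11:66360624-67069956 of GRCh37, was higher in Huh-7 throughout. Its median difference was 1.96, with a range of 1.03 to 3.48. KDM2A, a histone demethylase within it, was at 114 and 106 FPKM in Huh-7 and at 9.32 and 9.27 in PLC/PRF/5. The same run holds the copper chaperone gene CCS, the RNA-binding proteins RBM4 and RBM14, and PC. A readthrough of RBM14 and RBM4 is in the same run, and 5 of the 14 overlap another gene on the same strand, so these members are not independent.

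Several runs held members of gene families, some of them beside unrelated genes. The 5 metallothionein genes from MT2A to MT1A at chr16:56642496-56673999 (GRCh37, as for all runs) were higher in Huh-7 with a median of 4.36. The 12 genes from MAGEA4-AS1 onward at chrX:151072903-151960812 were higher in PLC/PRF/5 with a median of -3.05, and 9 genes from NUDT11 to SSX2B had a median of -3.76. The run of 5 genes from TM4SF18 to WWTR1 was higher in PLC/PRF/5 with a median of -2.89. It holds the tetraspan genes TM4SF18, TM4SF1 and TM4SF4. TM4SF1 was at 4.75 and 3.38 FPKM against 218 and 181, and TM4SF4 at 2.30 and 2.81 against 187 and 202. WWTR1, the Hippo pathway coactivator at the end of that run, was at 1.38 and 1.20 against 5.33 and 5.06.

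The 6 genes from STARD3 to ORMDL3 at chr17:37793343-38083854 surround ERBB2 and were all higher in PLC/PRF/5, with a median of -1.68. GRB7, the adaptor next to ERBB2, was at 0 and 0.0302 FPKM in Huh-7 and at 5.38 and 4.75 in PLC/PRF/5. MIEN1, which is transcribed on the opposite strand beside it, was at 2.05 and 1.98 against 8.54 and 8.03. The differences of all 6 lay between -2.67 and -1.40.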

How the data were processed

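Polyadenylated RNA from 4 libraries was measured, 1 per group. The authors prepared strand-marked (dUTP) libraries, sequenced them as paired reads on a NovaSeq and deposited 1 table per line with FPKM per gene from StringTie. Not given in the sources used here are the genome build, the annotation and whether both tables were quantified together. The tables also hold the authors' fold changes, p-values and q-values of treated against control cells, which were not used. A value of 0.0001 stands for 0 and was set to 0. The tables were joined by gene identifier, and genes with 1 FPKM or more in any library were kept. Differences are log2 of FPKM + 1, and a call needs a difference of 1 and no overlap of the libraries of the lines. With 1 library per group no test was run, and depth is unknown, so no interval is given. Named genes are the 4 line markers, the 15 widest line gaps per direction and members of each list, beside genes chosen after their values were seen, among them those found in a single line, those within runs and CD3D. The members and lists were chosen with earlier results of these data known. Named genes whose exons overlap another gene on the same strand include SNRPN, HLA-B, WNT7B, MAGEA12, MAGEA10, HNF4A and ACTB, and part of their values could belong there. Identifiers matched GENCODE 44 for 96.8%. Promoter sequences are from RefSeq, and 18 of the 30 widest-gap genes had a window. Python 3.11.15, numpy 2.4.6, pandas 2.3.3, scipy 1.17.1 and matplotlib 3.10.9 were used, and the scripts were tested on simulated data. The alternatives tried were other pseudocounts, expression floors, scalings and thresholds, the perturbed or control libraries alone, each library left out, and the removal of overlapping or noncoding genes. Some genes are not reported here.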

Additional observations from a re-analysis of the deposited data

Results flagged for a closer look

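In 14 genes the difference between the lines turned round between the control and the perturbed libraries, at 1 or more in size both ways. The difference of these differences was not tested, each group being a single library. All values are log2 of FPKM + 1, Huh-7 minus PLC/PRF/5. DAG1, the dystroglycan of the basement membrane, had a difference of 2.24 between the controls and -3.51 between the perturbed libraries. GLO1, which detoxifies methylglyoxal, had 1.62 and -1.77. LEPROT, which shares exons with the leptin receptor gene, had -2.19 and 2.07. CHAMP1, a protein of chromosome alignment, had -2.97 and 1.64. GABARAPL1, an autophagy protein, had -1.71 and 1.64, and ANKRD11, a chromatin regulator, had -1.26 and 1.70.

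The other 8 were noncoding, readthrough or pseudogene entries or identifiers without a gene name. TLCD4-RWDD3, a readthrough, had 1.31 and -1.31. NPIPP1 had -1.49 and 1.84, H3P6 had 1.48 and -1.92, and the small nucleolar RNA SNORD24 had -1.53 and 1.44. AC011448 had -3.01 and 2.02, AL662884 had 4.09 and -3.89, AC023509 had 3.37 and -5.65, and AC245060 had 1.44 and -2.33. None of the 14 was called, since the libraries of the lines overlapped in each. More widely, 139 genes passed the threshold between the controls without being called, and of the 123 of these with a position 67 (54.5%) overlap another gene on the same strand, against 18.1% of the called genes.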

How the results depend on the processing

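No paired analysis was possible because each group has 1 library and the labels carry no replicate numbers that join groups. Calls numbered 1744 for Huh-7, 1872 for PLC/PRF/5 and 493 genes within a line. With a pseudocount of 0.1 the calls were 2475 and 2584, and 1182 genes passed within a line. A pseudocount of 5 gave 643 and 665, 123 within a line, 3 list medians of 1 or more in size in place of 6, and 0 chromosomes with a median of 0.5 or more in size in place of 3. A floor of 5 FPKM gave 1139 and 1158, and 293 within a line. With no floor the list medians numbered 2 and the chromosomes 0. Rescaling each library to the same FPKM sum (TPM-like), with the pseudocount and floor of 1 in that unit, gave 3071 and 3079, 2101 within a line, and 327 single-line genes in place of 164. A threshold of 2 gave 426 and 470, and 85 within a line. Requiring a line gap of 1 left 1 such chromosome. Without overlapping genes 286 passed within a line, and among protein-coding genes 305. Centring on the median gave 1827 and 1788. The fold of the perturbed libraries gave 1786 and 1888, of which 1404 and 1543 were among the calls above (80.5% and 82.4% of them). Leaving out 1 library gave 1770 to 1854 for Huh-7, 1905 to 1926 for PLC/PRF/5, and 181 to 192 single-line genes. Over 16 alternatives, run for the line markers, the widest gaps and some reference genes, 0 of the 36 genes among these with a difference of 1 or more in size changed direction, as did 0 of the 6 list medians of that size and 0 of the 7 chromosome medians of 0.25 or more. Most of the 36 genes were picked for a wide gap in these same values, so that they could hardly change direction. The other named genes were not followed over the alternatives. Of all 31 lists, 12 medians changed sign under some alternative. LIN28B was -2.27 from the controls and -0.23 from the perturbed libraries. Relative depth, estimated from the smallest steps of the values, differed by a factor of 1.17 between the PLC/PRF/5 libraries, and low genes are the least certain.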
